A study of Mus musculus with 6 samples.

Results

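The genes described here are 8 that serve the handling of potassium and sodium by astrocytes: the potassium channel genes Kcnj10, Kcnj16 and Kcnk1, the sodium pump genes Atp1b1, Atp1b2 and Fxyd1, and the carrier genes Slc12a2 and Slc4a4. They were taken by gene symbol from the 45777 genes of the deposited table, and all 8 had reads in every sample. All 8 had lower fitted levels in astrocytes of mice given streptozotocin (STZ), a toxin of pancreatic beta cells that causes hyperglycemia, than in astrocytes of vehicle-treated mice. The differences ran from -0.44 on the log2 scale for Atp1b2 to -0.07 for Fxyd1, and none of the 8 passed the threshold for a call. The groups overlapped for Kcnj16, Kcnk1, Atp1b1, Fxyd1 and Slc12a2. Kcnj16 and Fxyd1 each changed direction in a fit with 1 sample left out.

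Active neurons release potassium, and astrocytes clear it. The pump exchanges sodium for potassium with a catalytic subunit, a beta subunit that the pump needs to reach the membrane, and a small FXYD protein that tunes it. Inward rectifier channels of the Kir family hold the astrocyte membrane near the potassium equilibrium and let potassium pass into the cell, while the sodium-potassium-chloride and sodium-bicarbonate carriers move ions and water and set cell pH. In astrocytes the beta-2 subunit Atp1b2 is the characteristic beta subunit, and Kir4.1, the product of Kcnj10, is the characteristic inward rectifier.

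The study asked how hyperglycemia alters astrocytes. Astrocytes were sorted by red fluorescence from brains of male Aldh1l1-CreERT2;tdTomato fl/fl mice, in which tamoxifen switches on the reporter in cells that use the astrocyte gene Aldh1l1. Both groups carried these alleles and received tamoxifen, and the labels give the genotype of both as WT. Mice were 8 weeks old at the injection of STZ or of vehicle, and brains were taken 21 days later, with only STZ mice above a blood glucose limit kept as hyperglycemic. Each of the 3 vehicle (Veh) and 3 STZ samples was a pool of cells from 3 mice, so that p-values measure the spread between pools. The mark depends on the Aldh1l1 promoter, and any other cell that uses it or passes the sort is included.

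Depth was 52529048 to 58749115 counts per sample, and the 8 genes had between 2787 counts, for Slc12a2, and 86864 counts, for Atp1b2, so that counting error was small for each. The 8 astrocyte markers summed to 12523 to 15213 TPM (a level scaled to transcript length and to the sample's total) in the vehicle samples and 12354 to 13829 in the STZ samples, and no list of cell type markers had a defining marker at 0 in all 6 samples. The 8 choroid plexus markers, led by Ttr, the transthyretin gene, summed to 10632, 28767 and 29929 TPM in Veh replicates 1 to 3 and to 19780, 15980 and 27005 TPM in STZ replicates 1 to 3. Veh replicate 1 stood apart with the lowest sum, and the difference of each of the 8 genes is given with and without it. Differences of related genes are given with it only. The 9 endothelial markers summed to 47.1 to 145 TPM in the vehicle samples and 132 to 263 TPM in the STZ samples, and 8 of the 9 had an unadjusted p under 0.05 with higher levels after STZ. The 7 pericyte and smooth muscle markers summed to 88.3 to 133 TPM and 123 to 170 TPM, with 3 of the 7 higher at an unadjusted p under 0.05. The markers of oligodendrocytes (788 to 2054 and 1027 to 2881 TPM), oligodendrocyte precursors (3.53 to 4.46 and 3.58 to 5.74), microglia (600 to 890 and 593 to 818), neurons (49.3 to 91.0 and 68.3 to 100) and ependymal cells (210 to 567 and 465 to 722) overlapped between the vehicle and STZ samples, with no marker at an unadjusted p under 0.05. Of the astrocyte markers, Aldh1l1 (-0.22 log2 units, unadjusted p = 0.0296) and the water channel gene Aqp4 (-0.48, 0.00383) were lower at that limit. Markers of forebrain astrocytes summed to 166 to 185 and 155 to 188 TPM, and those of diencephalic and hindbrain astrocytes to 3111 to 4355 and 4163 to 5079 TPM, with 2 of 6 lower and 1 higher at an unadjusted p under 0.05 (shares over all genes are given with the counts of the 8 genes). The part of these cells in the results for the 8 genes was not tested. A fit with a score of the choroid plexus markers is given below. That score comes from the same 6 samples, so the fit cannot show the part of choroid plexus cells.

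To show what the annotation places before these genes, the 250 bases ahead of the start site are printed for 1 gene whose groups did not overlap, Kcnj10, and 1 whose groups did, Atp1b1. Both are on chromosome 1 of GRCm38 (mm10): Kcnj10 at chr1:172341210-172374085 on the plus strand and Atp1b1 at chr1:164437099-164458355 on the minus strand. Sequences are from RefSeq, 5′ to 3′ along the gene, and 6 of the 8 genes had an entry, Atp1b2 and Slc12a2 being those without. Capitals mark the GC box GGGCGG and the CCAAT box CCAAT, each searched on both strands.

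Kcnj10, chr1:172340960-172341209: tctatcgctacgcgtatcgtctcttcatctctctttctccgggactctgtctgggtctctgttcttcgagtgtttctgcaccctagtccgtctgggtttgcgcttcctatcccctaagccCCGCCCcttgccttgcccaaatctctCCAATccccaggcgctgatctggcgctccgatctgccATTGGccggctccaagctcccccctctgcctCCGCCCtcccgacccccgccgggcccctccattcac

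Atp1b1, chr1:164458356-164458605: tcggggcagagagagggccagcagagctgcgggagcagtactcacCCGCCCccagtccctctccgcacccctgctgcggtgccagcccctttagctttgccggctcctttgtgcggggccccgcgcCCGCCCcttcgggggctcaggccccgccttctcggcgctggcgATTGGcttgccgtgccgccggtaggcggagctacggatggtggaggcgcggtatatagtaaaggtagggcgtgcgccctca

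The Kcnj10 window held 2 GC boxes and 2 CCAAT boxes and had a GC content of 62.0%. The Atp1b1 window held 2 GC boxes and 1 CCAAT box at 70.4% GC, and in neither window did these motifs share a base. Among 32851 RefSeq promoter windows, 32.74% held a GC box and 33.85% a CCAAT box on either strand, and the median GC content was 52.4%. Neither the TATA box TATAAA, held by 12.37% of windows, nor the E-box CACGTG, held by 6.02%, was in these 2 windows. A match is a description of letters and not a site of binding.

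Levels are compared between genes in TPM. Atp1b2, the beta-2 subunit, averaged 854 ± 181 TPM (SD, n = 6 samples), and Fxyd1, phospholemman, averaged 850 ± 83.7 TPM. Kcnk1, which encodes the two-pore potassium channel TWIK-1, averaged 756 ± 61.2 TPM. These 3 ranked 116, 117 and 139 by mean TPM among the genes listed. The order between them was not firm: Atp1b2 exceeded Fxyd1 in 1 of 6 samples, and Fxyd1 exceeded Kcnk1 in 5 of 6, with overlapping ranges.

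Lower levels belonged to the beta-1 subunit Atp1b1 (304 ± 41.2 TPM), the electrogenic sodium-bicarbonate carrier Slc4a4 (195 ± 37.0 TPM) and the Kir5.1 gene Kcnj16 (148 ± 23.4 TPM), whose product pairs with Kir4.1. Kcnj10 itself averaged 61.4 ± 9.62 TPM, and Slc12a2, the sodium-potassium-chloride carrier NKCC1, had the lowest level at 20.3 ± 2.88 TPM. Kcnk1 exceeded Atp1b1, Kcnj16 exceeded Kcnj10 and Kcnj10 exceeded Slc12a2 in all 6 samples without overlap of their ranges. The neighbours Atp1b1 and Slc4a4 overlapped in range although Atp1b1 was higher within each of the 6 samples, and Slc4a4 exceeded Kcnj16 in 5 of 6.

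**Figure D1:**
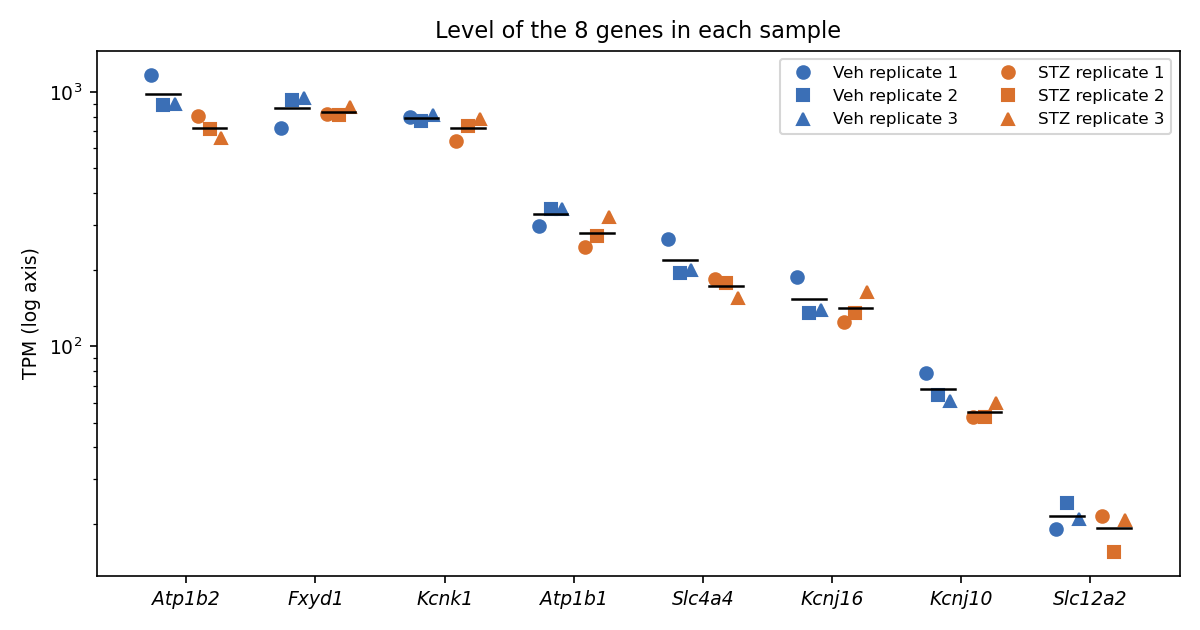
Level of each gene in TPM on a log axis, with 1 point per sample (blue for Veh, orange for STZ, shapes for replicates) and a bar at each group's mean. Groups are apart for Atp1b2, Slc4a4 and Kcnj10, and overlap for the other 5 genes.

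Among the sodium pump genes, Atp1b2 differed most. Its level was 1169, 889 and 893 TPM in Veh replicates 1 to 3 and 802, 714 and 658 TPM in STZ replicates 1 to 3. Every STZ sample was below every vehicle sample, and Veh replicate 1 was far above the other two. In normalized CPM, which are counts scaled to the library total with TMM factors, the group means were 1399 ± 191 (SD, n = 3) and 1031 ± 73.7 (SD, n = 3). The fitted difference was -0.44 log2 units (SE 0.119, 95% interval -0.72 to -0.16), a percent change of -26.35%, with an unadjusted p of 0.00669. After Benjamini-Hochberg adjustment over all 22337 genes tested, edgeR's quasi-likelihood test gave an adjusted p of 0.301, while DESeq2 gave 0.0359. The difference was under the 1.5-fold limit in both fits. Without Veh replicate 1 it was -0.33 with an unadjusted p of 0.00835.

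The beta-1 gene Atp1b1 had 297, 347 and 345 TPM in the vehicle samples and 245, 271 and 322 TPM in the STZ samples. STZ replicate 3 lay above Veh replicate 1, so the groups overlapped. The difference was -0.25 log2 units (SE 0.133, unadjusted p = 0.0975, edgeR adjusted p = 0.518). It reached -0.34 with an unadjusted p of 0.0328 without Veh replicate 1, and -0.38 with 0.0176 without STZ replicate 3. It was -0.15 with an unadjusted p of 0.287 without STZ replicate 1, and the remaining leave-outs gave unadjusted p-values of 0.197 to 0.220. Atp1b1 overlaps Nme7 on the opposite strand by 202 bases at its end, and reads there cannot be assigned with certainty because no source says that strand was used in counting.

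The ratio of beta-1 to beta-2 TPM was 0.254, 0.390 and 0.387 in the vehicle samples and 0.305, 0.38 and 0.489 in the STZ samples. The groups overlapped, with a log2 difference of 0.19 (exact permutation test, two-sided, p = 0.7; 3 against 3 cannot go below 0.1). Leaving out Veh replicate 1 turned this difference to -0.02.

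Fxyd1 had 721, 927 and 948 TPM in the vehicle samples and 817, 814 and 875 TPM in the STZ samples. Both the highest and the lowest values were in vehicle samples, and Veh replicate 1 was the lowest of all 6. The difference was -0.07 log2 units (95% interval -0.36 to 0.23, unadjusted p = 0.617, edgeR adjusted p = 0.874). It was -0.20 with an unadjusted p of 0.0343 without Veh replicate 1, and 0.01 without Veh replicate 3.

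Among the potassium channel genes, Kcnj10 had 78.5, 64.3 and 60.8 TPM in the vehicle samples and 52.5, 52.5 and 59.9 TPM in the STZ samples. The groups did not overlap, but the highest STZ sample came within 1 TPM unit of the lowest vehicle sample. Mean normalized CPM was 175 ± 21.8 (SD, n = 3) against 144 ± 10.3 (SD, n = 3), a difference of -0.29 log2 units (SE 0.104, 95% interval -0.53 to -0.05), a percent change of -18.11%. The unadjusted p was 0.0257, the edgeR adjusted p 0.389 and the DESeq2 adjusted p 0.289. Leaving out Veh replicate 1 gave -0.19 with an unadjusted p of 0.0596, and leaving out STZ replicate 1 or STZ replicate 2 gave unadjusted p-values of 0.0610 and 0.0910.

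Its partner Kcnj16 had 187, 135 and 139 TPM in the vehicle samples and 125, 136 and 164 TPM in the STZ samples. The groups overlapped widely, since 1 sample in each stood above the rest. The difference was -0.13 log2 units (95% interval -0.47 to 0.22, unadjusted p = 0.425, edgeR adjusted p = 0.785). It was 0.01 without Veh replicate 1, -0.03 without STZ replicate 1 and -0.26 without STZ replicate 3. The ratio of Kcnj16 to Kcnj10 was 2.38, 2.1 and 2.29 in the vehicle samples and 2.38, 2.58 and 2.74 in the STZ samples, a log2 difference of 0.18 (exact permutation test, two-sided, p = 0.2).

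Kcnk1 had 796, 765 and 813 TPM in the vehicle samples and 644, 734 and 783 TPM in the STZ samples. STZ replicate 3 reached the vehicle range and the other two STZ samples were below it. The difference was -0.15 log2 units (95% interval -0.40 to 0.09, unadjusted p = 0.189, edgeR adjusted p = 0.609). It was -0.17 without Veh replicate 1 (unadjusted p = 0.189), -0.06 without STZ replicate 1 (0.533) and -0.24 without STZ replicate 3 (0.0519).

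Between the carriers, Slc4a4 had 264, 194 and 199 TPM in the vehicle samples and 183, 177 and 155 TPM in the STZ samples. The groups did not overlap, and Veh replicate 1 was again far above the rest. Mean normalized CPM was 792 ± 119 (SD, n = 3) against 617 ± 43.8 (SD, n = 3), a difference of -0.36 log2 units (SE 0.121, 95% interval -0.64 to -0.08), a percent change of -22.14%. The unadjusted p was 0.0189, the edgeR adjusted p 0.356 and the DESeq2 adjusted p 0.155. The difference was -0.23 with an unadjusted p of 0.0323 without Veh replicate 1, and the unadjusted p was 0.0646 without STZ replicate 3. Slc4a4 spans chr5:88793858-89239656 and holds the long noncoding RNA gene Gm35855, which had 963 to 1266 counts against 33259 to 49781 for Slc4a4.

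Slc12a2 had 19.2, 24.3 and 20.9 TPM in the vehicle samples and 21.4, 15.5 and 20.6 TPM in the STZ samples. The groups overlapped, with STZ replicate 2 below the other 5 samples. The difference was -0.16 log2 units (95% interval -0.49 to 0.17, unadjusted p = 0.292, edgeR adjusted p = 0.696). It was -0.25 without Veh replicate 1, -0.07 without Veh replicate 2 and -0.03 without STZ replicate 2, with unadjusted p-values of 0.114, 0.65 and 0.796.

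**Figure D2:**
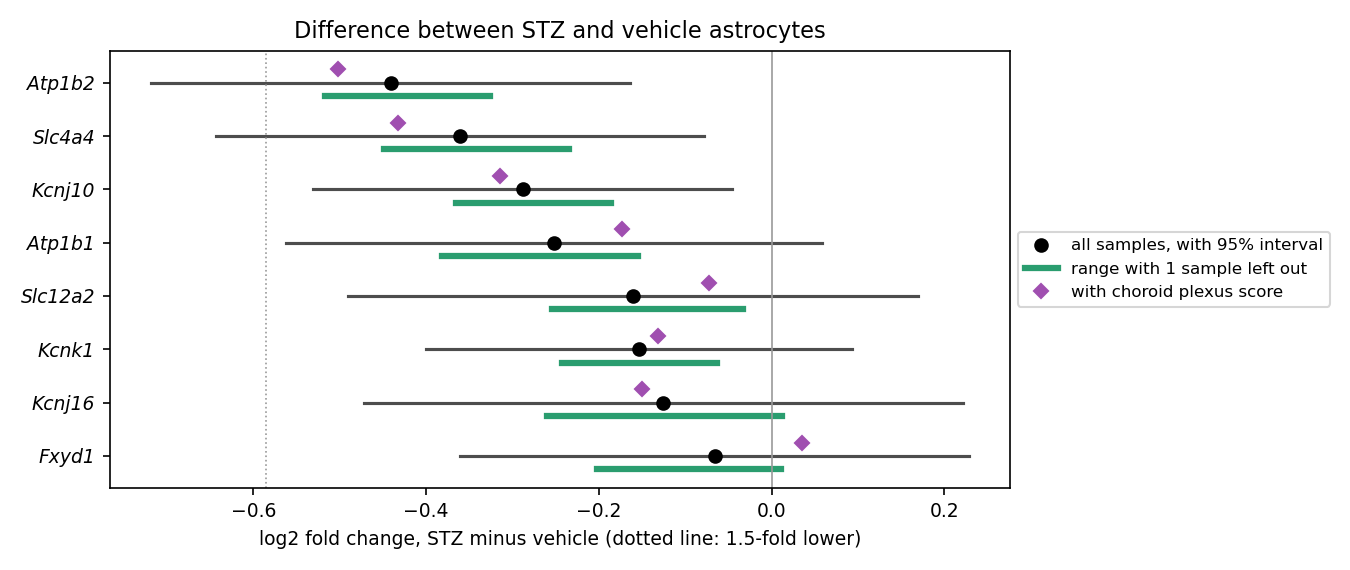
Log2 fold change of each gene, STZ minus vehicle, with edgeR's 95% interval (black), the range when 1 sample is left out (green) and the value with a choroid plexus score in the fit (purple). The intervals of Atp1b2, Slc4a4 and Kcnj10 lie below 0, and the ranges of Kcnj16 and Fxyd1 reach above 0.

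Counted together, 0 of the 8 genes were called by edgeR at the limits of adjusted p (0.05) and fold (1.5), where 5 of all genes tested (0.0224%) were, and DESeq2 with the same limits also called 0 of the 8, where it called 234 of all genes (1.05%). Without a limit on the fold, DESeq2 gave 1 of the 8, Atp1b2, an adjusted p under 0.05 with a lower level, against 0.895% of all genes. At an unadjusted p under 0.05 in edgeR, 3 of the 8 were lower, against 5.65% of all genes, and 0 were higher, against 5.63%. The groups did not overlap for 3 of the 8 with STZ lower, against 9.85% of all genes, and for 0 with STZ higher, against 8.64%. The same 3 genes, Atp1b2, Slc4a4 and Kcnj10, made up both counts and varied together over the samples (Pearson's r of log2 CPM 0.823 to 0.983). The 8 genes were chosen with earlier results of these data known, so these counts are a description and no test of the set. The median log2 difference of the 8 was -0.21, beside 0.01 over all genes tested. The 8 astrocyte markers had a median of -0.15. For 3 of these markers the groups did not overlap with STZ lower, and 2 were lower at an unadjusted p under 0.05. Whether the 8 genes differ from astrocyte genes in general was not tested. In bulk samples, fewer cells of a type and less RNA per cell cannot be told apart. Without Veh replicate 1, 7 of the 8 were lower and 4 had an unadjusted p under 0.05, now Atp1b1, Atp1b2, Fxyd1 and Slc4a4. In that fit 2358 of 22795 genes had an unadjusted p under 0.05 in either direction.

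The 8 genes together held 3532, 3345 and 3419 TPM in the vehicle samples, or 0.335% to 0.353% of the total, and 2889, 2914 and 3036 TPM in the STZ samples, or 0.289% to 0.304%. The sums did not overlap between the groups although 5 of the 8 genes did. Their log2 difference was -0.22 (exact permutation test, two-sided, p = 0.1, the lowest that 3 against 3 can give). Atp1b2 held 1169 of the 3532 TPM in Veh replicate 1 and 658 of the 3036 TPM in STZ replicate 3. Without Atp1b2 the sum of STZ replicate 3 was above that of Veh replicate 1, so the groups overlapped. The difference of the sums without Atp1b2 was not tested. Atp1b2 had the largest difference in group means of the 8 on the TPM scale, 984 ± 161 against 724 ± 72.6 TPM (SD, n = 3 each).

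The genes did not share 1 pattern over the samples. In normalized CPM, Atp1b2 and Slc4a4 had the same order of all 6 samples, from Veh replicates 1, 3 and 2 to STZ replicates 1, 2 and 3. Among the 60 tested members and related transport genes, Slc12a4 and Slc4a8 had that order too, and 126 of all genes tested (0.564%) did. Kcnj10 also had Veh replicate 1 at the top and the STZ samples at the bottom, in another order.

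In normalized CPM, Atp1b1, Fxyd1 and Slc12a2 had Veh replicates 2 and 3 as their highest samples and STZ replicate 3 next. For Slc12a2 this was nearly a tie, at 64.8 in Veh replicate 3, 64.7 in STZ replicate 3 and 63.3 in STZ replicate 1. In TPM its STZ replicate 1 was above Veh replicate 3. The mean log2 level of the 8 choroid plexus markers, centred on 0, was -0.72, 0.66 and 0.53 in the vehicle samples and -0.21, -0.57 and 0.31 in the STZ samples, with the same 3 samples highest. With that score as a covariate in edgeR, a fit chosen after the data were seen, the difference was -0.17 for Atp1b1 (unadjusted p = 0.117), -0.07 for Slc12a2 (0.489) and 0.04 for Fxyd1 (0.631). In the same fit it was -0.50 for Atp1b2 (unadjusted p = 0.000398, adjusted p = 0.125), -0.43 for Slc4a4 (0.000329 and 0.125) and -0.31 for Kcnj10 (0.0160 and 0.215). For Kcnj16 and Kcnk1, whose groups overlapped, that fit gave -0.15 (unadjusted p = 0.349) and -0.13 (0.235). The score lowered p-values for many genes: 3726 of 22337 had an unadjusted p under 0.05, against 2519 without the score.

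**Figure D3:**
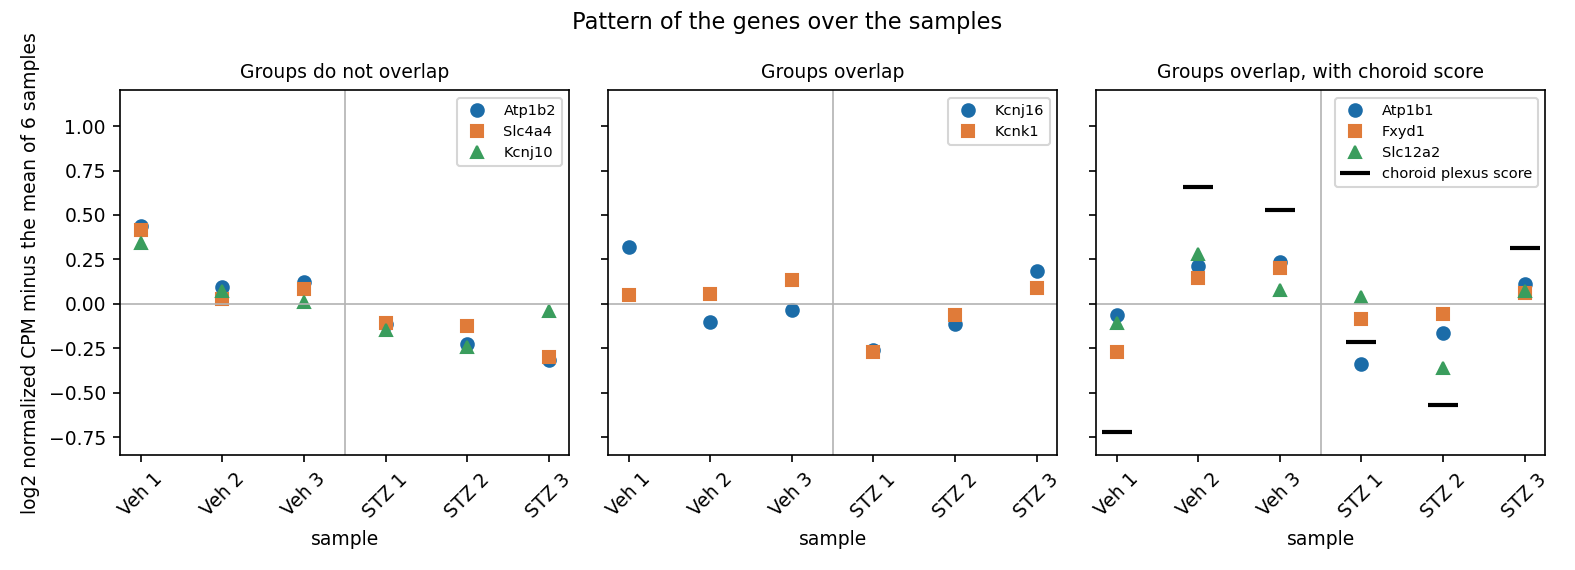
Log2 normalized CPM of each gene minus its mean over the 6 samples, by sample (Veh 1 to 3, then STZ 1 to 3), for genes whose groups do not overlap (left), for Kcnj16 and Kcnk1 (middle) and for Atp1b1, Fxyd1 and Slc12a2 with the choroid plexus score as bars (right). Atp1b2 and Slc4a4 are highest in Veh 1 and lowest in STZ 3, and the genes on the right are highest in Veh 2 or Veh 3.

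A list of 62 related genes for other beta subunits, FXYD regulators, potassium channels, carriers, their kinases and carbonic anhydrases gave 52 that could be tested. Of these, 0 were called by edgeR or DESeq2, 5 were lower and 2 higher at an unadjusted p under 0.05, the groups did not overlap for 6 with STZ lower and 1 with STZ higher, and the median log2 difference was -0.02. Over all genes tested, 5.65% were lower and 5.63% higher at that unadjusted p. Their groups did not overlap for 9.85% with STZ lower and for 8.64% with STZ higher.

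The third beta gene, Atp1b3, averaged 200 TPM in the vehicle and 202 TPM in the STZ samples, a difference of -0.01 (unadjusted p = 0.954). Its level was thus between those of Atp1b1 and Kcnj16, and its groups overlapped.

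Slc12a4, the potassium-chloride carrier KCC1, had 148, 130 and 131 TPM in the vehicle samples and 114, 109 and 106 TPM in the STZ samples. The groups did not overlap, with a difference of -0.33 log2 units (SE 0.0679, unadjusted p = 0.00156, edgeR adjusted p = 0.218, DESeq2 adjusted p = 0.0284), under the 1.5-fold limit. The sodium-dependent bicarbonate carrier Slc4a8 averaged 4.72 TPM and differed by -0.40 (unadjusted p = 0.00539). The channel genes Kcnj3 (-0.73, unadjusted p = 0.0209), Kcnj14 (-0.35, 0.0419) and Kcnk10 (-0.42, 0.0254) were below 10 TPM. The kinase gene Wnk2 was higher at 0.39 log2 units (unadjusted p = 0.0264), as was Fxyd2 at 1.09 (0.0444), the latter with a mean of 1.03 TPM.

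The remaining related genes with a mean of at least 10 TPM had unadjusted p-values above 0.05. The anion exchanger genes Slc4a2 and Slc4a3 differed by -0.36 and -0.16, Slc4a5 by -0.03 and Slc4a10 by -0.20 log2 units. Car2, a cytosolic carbonic anhydrase that makes bicarbonate, averaged 947 TPM and differed by -0.17 (unadjusted p = 0.110), and the other carbonic anhydrase genes Car4, Car12 and Car14 by 1.01, -0.28 and 0.13. Fxyd5 averaged 98.6 TPM and differed by 0.85 (unadjusted p = 0.0620), Fxyd6 by 0.13 and Fxyd7 by 0.18. Wnk1 (-0.11) and Stk39 (-0.30), kinases that act on the chloride carriers, Slc12a9 (-0.16) and the two-pore channel gene Kcnk2 (0.00) complete them, with Kcnj13 (159 TPM, -0.43, unadjusted p = 0.337), which is also among the choroid plexus markers. Atp1b4 and Kcnj1 are listed at 0 in all samples.

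**Figure D4:**
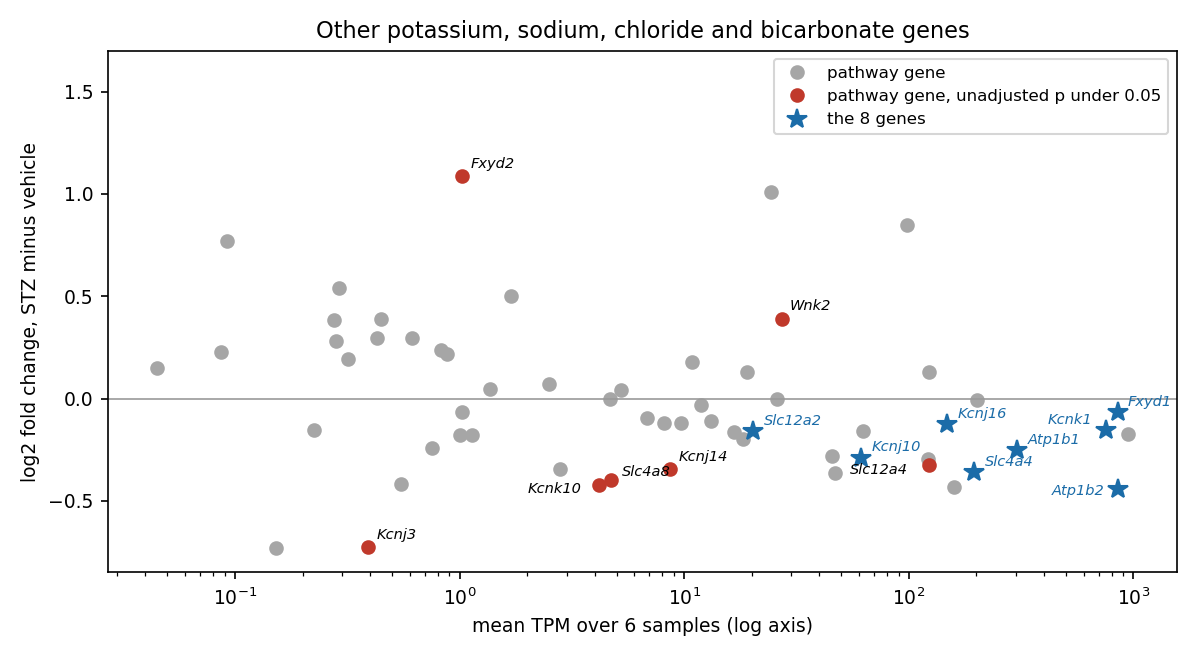
Log2 fold change, STZ minus vehicle, against mean TPM on a log axis for the 52 related genes tested (grey, red where the unadjusted p was under 0.05) and the 8 genes (blue stars). The 8 genes all lie below 0, and the related genes spread to both sides.

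By Pearson's r of log2 CPM over the 6 samples among 9082 genes with a mean of at least 10 TPM, the genes most like Kcnj10 were Mex3c (r = 0.9964), Mogs (0.9963) and Tmem201 (0.9941). Those most like Atp1b2 were Abr (0.997), Rab11fip4 (0.9945) and Aplp1 (0.9939). These values describe 6 shared libraries and were picked as the highest of many.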

How the data were processed

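RNA of sorted astrocyte pools was sequenced in 3 vehicle and 3 STZ samples, grouped and numbered by the sample titles. Per the submitters' processing notes, reads were processed with bcl2fastq 2.20.0, Trimmomatic 0.38, HISAT2 2.1.0, Bowtie2, SAMtools 1.9 and StringTie 2.1.3b on mm10. The labels and the methods name different library kits. The authors deposited raw read counts for each gene, as whole numbers. FPKM values made by the authors were not used. TPM values made by the authors were used for levels and ratios. The members and lists were chosen with earlier results of these data known.

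Genes with a count in every sample (22337 of 45777) entered edgeR's two-sided quasi-likelihood test (version 4.0.16, R 4.3.3) after TMM normalization. The model held the group alone, and p-values were adjusted by Benjamini-Hochberg. A call needed both an adjusted p below 0.05 and a 1.5-fold difference. The tests were checked on simulated data. Alternatives were DESeq2 1.42.0, its size factors in edgeR, no filter, filterByExpr, the replicate number as a block, limma 3.58.1 on log2 TPM with a pseudocount of 1 or 0.1, leaving out each sample, and other thresholds. Samples differed by more than sampling noise in every pair (chi-square per gene 15.85 to 82.79). Named were the 8 genes, related genes with a mean of at least 10 TPM or an unadjusted p under 0.05, the marker lists, and the 3 genes most like Kcnj10 and Atp1b2. Some related genes are not reported here.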

Additional observations from a re-analysis of the deposited data

How the results depend on the processing

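The count of genes called, 5 in edgeR, was 234 with DESeq2, 0 with the replicate number as a block, 0 with limma on log2(TPM + 1) or log2(TPM + 0.1), 0 to 1 when 1 sample was left out, and 2519 with an unadjusted p and no limit on the fold. With the block, limma at each pseudocount and leaving out samples, 1793, 2635, 2612 and 1704 to 2802 genes had an unadjusted p under 0.05. With a choroid plexus score as a covariate, chosen after seeing the data, it was 10. None of the 8 genes was called under these settings, except the 3 at an unadjusted p with no limit on the fold. Of 112 recomputed differences of the 8 genes, 109 kept their direction. The difference of Kcnj16 ranged from -0.2597 to 0.0115 when 1 sample was left out, turning without Veh replicate 1, and that of Fxyd1 from -0.2025 to 0.0108, turning without Veh replicate 3. Fxyd1 was also at 0.0357 with the choroid plexus score. The log2 ratio of Atp1b1 to Atp1b2 ranged from -0.0152 to 0.3551 when 1 sample was left out. The cause was not tested. Same-numbered samples did not deviate together (r from -0.184 to -0.101), which with 3 samples per group cannot decide whether they shared processing. The numbers were treated as names only. The block moved Atp1b1 under the limit on the unadjusted p (0.0361; edgeR adjusted p 0.612). Each group had 3 pools.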
